A study of Danio rerio with 6 samples.

Results

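Voltage-gated calcium channels let calcium into the heart muscle cell at each beat. The genes described here are those whose symbol in the deposited annotation, case ignored, begins with *cacna*, *cacnb* or *cacng*, which name the pore-forming, alpha2delta, beta and gamma subunits. They are 48 of the 31701 genes of the table. RNA was sequenced from whole hearts dissected at 57 to 59 hours post fertilization from zebrafish of 2 groups, mutants and sibling larvae of wild type (WT), with 3 biological replicates per genotype, each a pool of 23 hearts and 1 library. The title of the series names Wwtr1 (Taz), a coactivator of transcription that the Hippo kinases hold back; the labels name neither its allele nor a treatment for either group. Each value is a normalised read count, that is, a read count per gene that the authors scaled between libraries and rounded to a whole number.

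Each channel is built around 1 large alpha1 subunit, which forms the pore and sets the class of the current. L-type pores open at strong depolarisation and carry the calcium that triggers release from the sarcoplasmic reticulum in the working heart muscle. T-type pores open near the resting potential and are known from pacemaking tissue and from the embryonic heart, and the P/Q-, N- and R-type pores are known chiefly from nerve terminals. The extracellular alpha2delta and the cytoplasmic beta subunits bring L-, P/Q-, N- and R-type pores to the cell surface and tune their gating. Gamma subunits are small membrane proteins, of which several are known in mammals as partners of glutamate receptors rather than of calcium channels.

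The values summed to between 19187058 and 25227868 per library. Rows that the table annotates as ribosomal RNA, mitochondrial ones included, took 40.4% to 41.4% of the sum in 5 libraries and 43.9% in WT replicate 2, which also had the highest sum. Transcripts of *wwtr1* (ENSDARG00000067719, chromosome 22, 38095983 to 38161452 on GRCz10) stood at 362, 416 and 471 in WT replicates 1 to 3 and at 128, 151 and 100 in mutant replicates 1 to 3, so the groups did not overlap (log2 change −1.72, SE 0.155; limma, Benjamini-Hochberg adjusted p = 0.000251). All 9 cardiomyocyte markers were measured in every library, with summed values of 316670 to 366803 in WT and 319814 to 352141 in mutant hearts. These are whole organs, so fewer cells of a type and less RNA per cell cannot be told apart. The test was run on 18901 genes that reached 10 in 3 or more libraries, and 29 of them are among the 48 subunit genes. No transcript lengths were used here, so values of different genes count reads and are not ranked as levels.

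None of the 29 tested subunit genes passed at an adjusted p under 0.05 by limma, where 0.037% of all genes tested did. At an unadjusted p under 0.05 there were 2 subunit genes, or 6.9%, against 6.6% of all genes tested. They were *cacna1g*, which stood higher in mutant hearts as did 3.25% of all genes tested at this p, and *cacna1ba*, which stood lower as did 3.35%. The groups did not overlap for 4 subunit genes, *cacna1g*, *cacna1da* and *cacna2d1a* higher in mutant hearts and *cacna1ba* lower, or 13.8%, against 11.1% of all genes tested (5.57% higher and 5.53% lower). Both shares, taken over the 2 directions together, are near those of all genes. By direction, the subunit genes without overlap were 3 higher, or 10.3% against 5.57%, and 1 lower, or 3.45% against 5.53%. The log2 change was above 0 for 16 members, or 55.2%, and below 0 for 13, against 49.5% above 0 among all genes tested. The median was 0.04 over the members, and 0.02 to 0.12 with each library left out in turn, against −0.0029 over all genes tested.

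Among the L-type pore genes, *cacna1c* held most of the reads. It encodes the alpha-1C subunit of the main cardiac L-type channel, which the zebrafish embryonic heart needs for its rhythm and for growth of the ventricle. *cacna1c* (ENSDARG00000008398, plus strand of chromosome 4, 20597152 to 20753997) stood at 1554, 1474 and 1457 in WT replicates 1 to 3 and at 1466, 1843 and 1580 in mutant replicates 1 to 3. Mutant replicate 2 was the highest library, mutant replicate 1 lay among the WT libraries, and the groups overlapped. The log2 difference was 0.12 with a 95% interval of −0.08 to 0.32 (SE 0.0942, limma adjusted p = 0.884). As a fold this interval runs from 0.944 to 1.25. Without mutant replicate 2 the log2 difference was 0.03, and without mutant replicate 1 it was 0.19.

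The skeletal muscle L-type genes *cacna1sa* and *cacna1sb* encode the voltage sensor that couples depolarisation to calcium release in skeletal muscle. *cacna1sb* stood at 106, 113 and 84 in WT and at 101, 138 and 106 in mutant replicates 1 to 3, a log2 difference of 0.18 (95% interval −0.20 to 0.57, limma adjusted p = 0.927). It was 0.046 without mutant replicate 2 and 0.057 without WT replicate 3. *cacna1sa* stood at 67, 79 and 62 in WT and at 63, 66 and 83 in mutant hearts, with a log2 difference of 0.02. Both genes overlapped between the groups. Skeletal muscle markers were present in every library: all 10 passed the value filter, and their sum ran from 19586 to 32584 in WT and from 20283 to 27843 in mutant hearts, highest in WT replicate 2. The part of this muscle RNA in the *cacna1s* values was not tested.

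The paralogues *cacna1da* and *cacna1db* encode alpha-1D pores, known in mouse from the sinoatrial node and in zebrafish and mouse from hair cells. *cacna1da* (chromosome 11, 36530848 to 36696536) stood at 18, 18 and 15 in WT and at 30, 26 and 21 in mutant replicates 1 to 3. Every mutant library lay above every WT library, but the test did not pass (log2 difference 0.56, 95% interval −0.15 to 1.26, limma adjusted p = 0.835). The pooled SD within groups, 3.42, was below the counting error of about 4.62, the square root of the mean over all libraries. *cacna1db* stood at 26, 39 and 35 in WT and at 29, 27 and 12 in mutant hearts, a log2 difference of −0.61 (95% interval −1.38 to 0.16), and its groups overlapped. The annotated span of *cacna1db* on chromosome 8, 53026462 to 53483663, also covers other genes, among them *gnb1a*, *nr2c2*, *mrps25* and *cfap74*. All 4 lie on the same strand. *gnb1a* stood at 544 to 591 in WT and 544 to 601 in mutant hearts, *nr2c2* at 97 to 122 and 105 to 124, and *mrps25* at 191 to 243 and 168 to 249, each with overlap. *cfap74*, singled out after its values were seen, stood at 22, 23 and 22 in WT and at 15, 7 and 5 in mutant replicates 1 to 3. Its groups did not overlap, as for 5.53% of all genes tested that were lower in mutant hearts. The sources used here do not say how reads in shared exons were counted. The part of these genes in the *cacna1db* values was not tested. The alpha-1F genes of photoreceptor synapses were low in every library, *cacna1fa* between 13 and 28 and *cacna1fb*, which was not tested, between 6 and 12. Of 6 photoreceptor and retina markers, 2 passed the value filter, and the sum of all 6 was 28 to 55 per library.

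**Figure D1:**
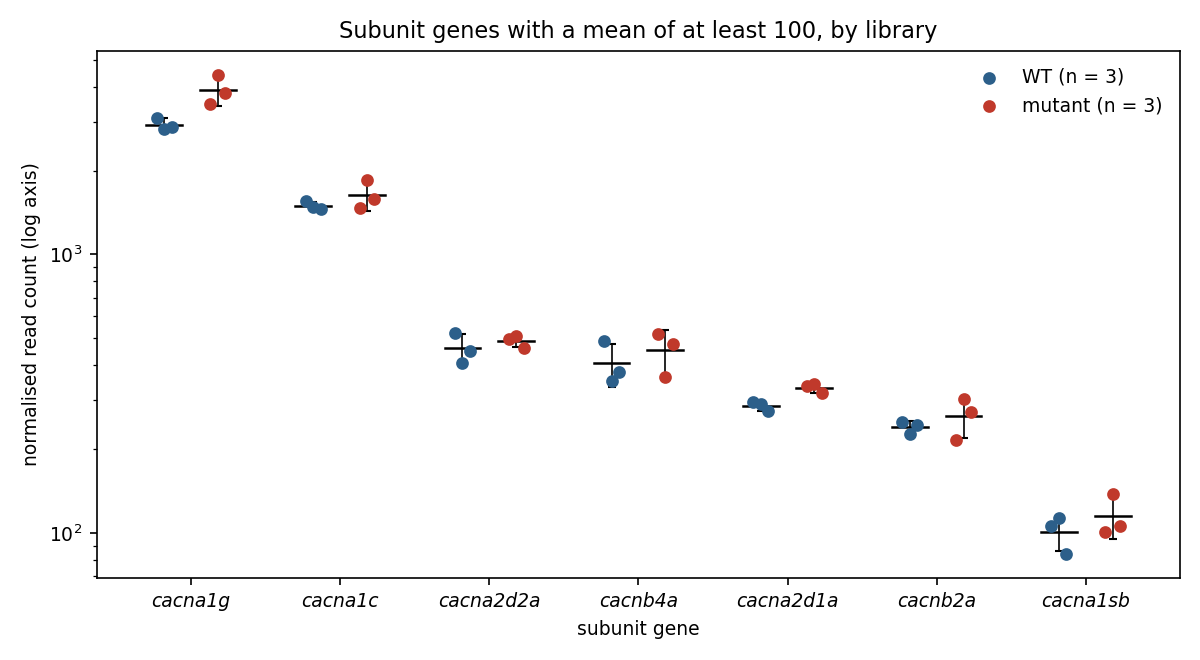
Normalised read counts (log axis) of the 7 subunit genes with a mean of at least 100, 1 point per library, with the mean and SD of 3 WT and 3 mutant libraries. The 3 mutant libraries lie above the 3 WT libraries for *cacna1g* and *cacna2d1a* and overlap them for the other genes; heights of different genes are not corrected for transcript length.

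The T-type pore gene *cacna1g* stood higher in mutant hearts, 3896 ± 483 (SD, n = 3) against 2923 ± 154 in WT hearts. It encodes the alpha-1G subunit, which in mouse carries the T-type current of the sinoatrial and atrioventricular nodes. *cacna1g* (ENSDARG00000089913, plus strand of chromosome 12, 27612655 to 27975985) reached 3099, 2813 and 2857 in WT replicates 1 to 3 and 3468, 4419 and 3801 in mutant replicates 1 to 3. The lowest mutant library, replicate 1, lay above the highest WT library, and mutant replicate 2 was highest, as for *cacna1c*. The log2 difference was 0.41 with a 95% interval of 0.20 to 0.61 (SE 0.0961), or 1.33-fold with an interval of 1.15 to 1.53. The unadjusted p was 0.000756 and did not survive adjustment over all genes tested (limma adjusted p = 0.265). Leaving out each library in turn kept the difference between 0.31, without mutant replicate 2, and 0.49, without mutant replicate 1, with adjusted p between 0.212 and 0.539. The SE and p depended on the variance trend across genes that limma used. Without that trend the SE was 0.137, the unadjusted p 0.023 and the limma adjusted p 0.74.

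The other T-type genes had few reads. *cacna1ha*, an alpha-1H gene, stood at 38, 52 and 93 in WT and at 53, 61 and 92 in mutant replicates 1 to 3, a spread within each group larger than the log2 difference of 0.23 (95% interval −0.42 to 0.87). Its direction turned without WT replicate 1 (−0.06) or mutant replicate 3 (−0.0014). *cacna1i* (13 to 22) and a row that the deposited table calls *CACNA1I* (ENSDARG00000096307, 11 to 23; *cacna1ib* in the gene name table), both alpha-1I genes known in mammals from the thalamus, overlapped between the groups with log2 differences of 0.04 and 0.33. *cacna1hb* was not tested and never exceeded 7, and an antisense row that also bears the symbol *cacna1ha* (ENSDARG00000097913) was at 0 in every library. All 4 tested T-type genes had a log2 difference above 0, a count that also held with TMM factors and with quantile normalisation but fell to 3 when WT replicate 1 or 3 or mutant replicate 2 or 3 was left out.

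Dividing *cacna1g* by another gene of the same library removes the scaling between libraries if each library was scaled by a single factor. The sources used here do not say whether it was. The ratio of *cacna1g* to *cacna1c* reads was 1.994, 1.908 and 1.961 in WT replicates 1 to 3 and 2.366, 2.398 and 2.406 in mutant replicates 1 to 3. The mean was 1.95 ± 0.0433 (SD, n = 3) in WT and 2.39 ± 0.0212 in mutant hearts, a ratio of means of 1.22. The groups did not overlap, and the gap between them was wider than the range within either group. Relative to *tnnt2a*, which encodes cardiac troponin T, *cacna1g* reads stood at 0.175, 0.176 and 0.182 in WT and at 0.240, 0.276 and 0.261 in mutant hearts. Relative to *myl7*, the cardiac myosin light chain gene, they stood at 0.139, 0.162 and 0.165 in WT and at 0.177, 0.256 and 0.209 in mutant hearts, again without overlap. For *cacna1c*, the ratio to *tnnt2a* ran from 0.0879 to 0.0928 in WT and from 0.102 to 0.115 in mutant hearts, without overlap, whereas its ratio to *myl7* overlapped between the groups. Both denominators had a log2 difference below 0, *tnnt2a* of −0.13, the lowest of the 9 cardiomyocyte markers, and *myl7* of −0.04. Of the 9 markers 5 lay above 0, and none of these was used as a denominator. The ratios were chosen after the values had been seen and are given as a description, with no test.

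**Figure D2:**
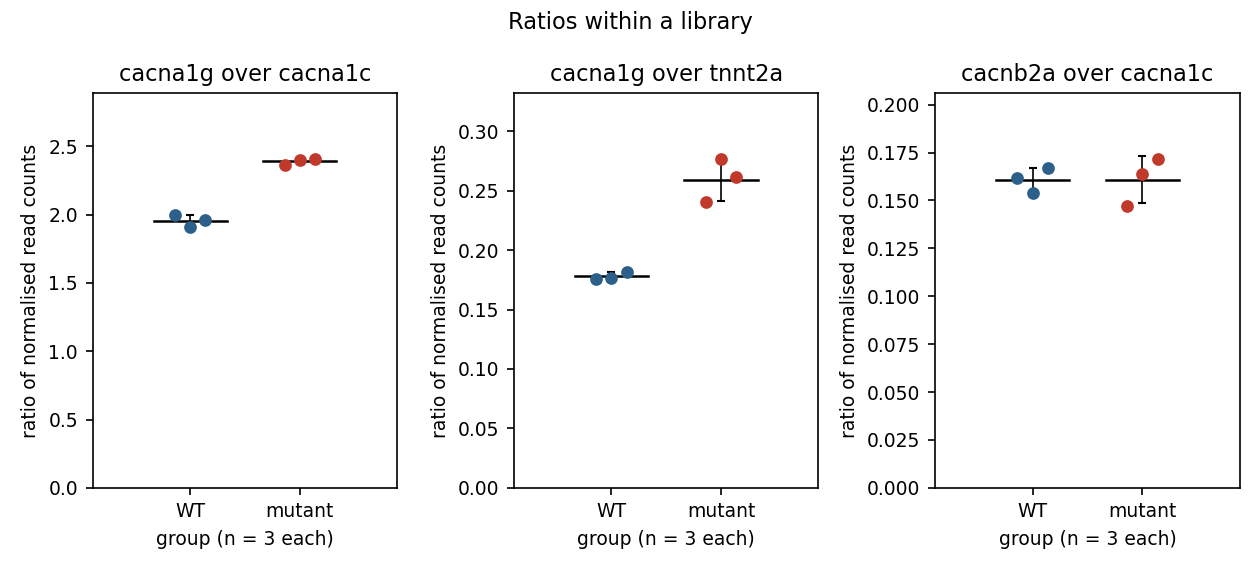
Ratios of normalised read counts within each library, 1 point per library, with the mean and SD of 3 libraries per group; each axis starts at 0. The ratio of *cacna1g* to *cacna1c* lies between 1.91 and 1.99 in WT and between 2.37 and 2.41 in mutant hearts, and that of *cacnb2a* to *cacna1c* overlaps between the groups.

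Markers of the cell types of the heart were read beside *cacna1g*. Of 6 endocardial and endothelial markers 5 had a log2 difference above 0, against 49.5% of all genes tested, and *kdrl* lay at −0.03. The groups did not overlap for 2 of the 6, *cdh5* and *tie1*, against 11.1% of all genes tested. The summed value of the 6 was 8413 to 9507 in WT and 9991 to 10914 in mutant hearts, without overlap. Much of it was *cdh5*, at 4109 to 5129 in WT and 5162 to 5923 in mutant hearts. The 5 blood markers in the table all had a difference above 0, against 49.5% of all genes tested. The groups overlapped for each of the 5 and for their sums, 46452 to 51546 in WT and 46309 to 77002 in mutant hearts. The 9 cardiomyocyte markers had a median log2 difference of 0.01 and their sums, given above, overlapped. None of these markers passed over all genes tested, and their part in the *cacna1g* values was not tested.

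Of the pore genes known chiefly from neurons, *cacna1ba* stood lower in mutant hearts, at 17.3 ± 5.03 against 38.0 ± 7.81 in WT hearts (SD, n = 3). It encodes an alpha-1B pore, the N-type channel that drives transmitter release at peripheral and central synapses. *cacna1ba* (ENSDARG00000021735, minus strand of chromosome 5, 28694465 to 28888092) stood at 47, 34 and 33 in WT replicates 1 to 3 and at 22, 12 and 18 in mutant replicates 1 to 3. Every mutant library lay below every WT library, the closest being mutant replicate 1 and WT replicate 3. The log2 difference was −1.11 (95% interval −1.81 to −0.41, SE 0.328), with an unadjusted p of 0.00428 and a limma adjusted p of 0.447. With each library left out in turn the difference stayed between −0.88 and −1.29. At values this low the counting error alone is about 5.26, the square root of the mean over all libraries, beside a pooled SD within groups of 6.57.

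The paralogue *cacna1bb* overlapped between the groups, at 18, 19 and 31 in WT and 20, 16 and 20 in mutant hearts (log2 difference −0.23, 95% interval −0.98 to 0.51). The P/Q-type genes were close to 0 difference. *cacna1aa* stood at 55, 67 and 51 in WT and 50, 49 and 67 in mutant hearts (log2 difference −0.06, 95% interval −0.54 to 0.41). *cacna1ab* stood at 34, 57 and 32 against 35, 37 and 46 (log2 difference −0.02, 95% interval −0.62 to 0.58). Neither P/Q-type gene separated the groups. The R-type genes *cacna1ea* (13 to 22) and *cacna1eb* (5 to 14, not tested) also overlapped. All 5 tested genes of these types had a log2 difference below 0, with a median of −0.23, but *cacna1aa* and *cacna1ab* turned above 0 when mutant replicate 1 or 2 or WT replicate 2 was left out, so that 3 of 5 lay below. Without WT replicate 3, or with libraries weighted, 4 of 5 lay below. The median was −0.13 without WT replicate 1, WT replicate 2 or mutant replicate 2.

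Neuronal markers were measured beside these channels. All 10 in the table passed the value filter, 4 with a log2 difference above 0 and 6 below, and their sum was 941 to 981 in WT and 842 to 953 in mutant hearts. The groups overlapped for each of the 10. One of them, *phox2bb*, a transcription factor gene of autonomic neurons and their precursors that was singled out after its values were seen, stood at 31, 19 and 54 in WT and at 29, 3 and 13 in mutant replicates 1 to 3 (log2 difference −1.46, unadjusted p = 0.028, limma adjusted p = 0.704). Of 5 neuroendocrine and pancreas markers 3 were tested, and all 3 had a log2 difference below 0, with a median of −0.36. All 3 were low, with means of 13.5 to 24.3 over the libraries. The groups did not overlap for 1 of them, *pcsk1*, at 19 to 23 in WT and 12 to 15 in mutant hearts. It did not pass (log2 difference −0.60, unadjusted p = 0.115, limma adjusted p = 0.839). Of all genes tested 49.5% lay above 0, and the groups did not overlap for 11.1%, with 5.53% lower in mutant hearts. The sum of all 5 overlapped, at 56 to 73 in WT and 42 to 63 in mutant hearts. The part of neuronal or neuroendocrine RNA in the *cacna1ba* values was not tested.

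**Figure D3:**
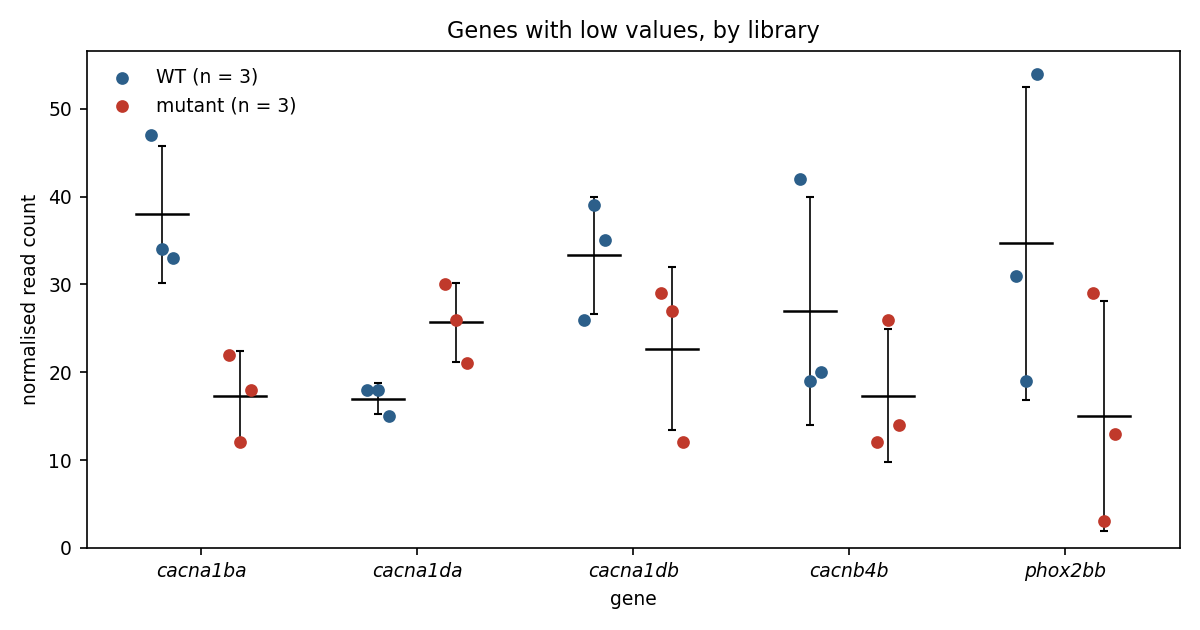
Normalised read counts of *cacna1ba*, *cacna1da*, *cacna1db*, *cacnb4b* and 1 gene that is not a calcium channel subunit, the neuronal factor gene *phox2bb*; points are libraries, lines and bars the mean and SD of 3 per group. WT and mutant libraries are separate for *cacna1ba* (33 to 47 against 12 to 22) and *cacna1da* (15 to 18 against 21 to 30). They overlap for the other genes shown, *phox2bb* included. *phox2bb* was singled out after its values were seen, from 10 neuronal markers, 4 with a log2 difference above 0 and 6 below.

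The alpha2delta genes with substantial reads were *cacna2d1a* and *cacna2d2a*. In mammals alpha2delta-1 is the form bound to the cardiac L-type channel, and alpha2delta-2 is known from cerebellum and heart. *cacna2d1a* (ENSDARG00000014804, minus strand of chromosome 4, 19779504 to 19895170) stood at 294, 289 and 273 in WT replicates 1 to 3 and at 336, 341 and 317 in mutant replicates 1 to 3. The groups did not overlap, yet the difference was small (log2 0.21, 95% interval −0.01 to 0.44, unadjusted p = 0.0596, limma adjusted p = 0.765). The pooled SD within groups, 11.8, was below the counting error of about 17.6. The libraries thus lay closer together than counting alone would give, which 3 libraries per group cannot show to be steady. Of the 7 tested members with a mean of at least 100, this held for 1. *cacna2d2a* (ENSDARG00000103390, minus strand of chromosome 6, 53438122 to 53902751) stood at 523, 407 and 448 in WT and at 498, 510 and 461 in mutant hearts, with a log2 difference of 0.10 (95% interval −0.14 to 0.33) and overlapping groups. That difference was 0.015 without WT replicate 2 and 0.20 without WT replicate 1. The ratio of *cacna2d1a* to *cacna1c* reads was 0.191 ± 0.00459 in WT and 0.205 ± 0.0224 in mutant hearts (SD, n = 3) and overlapped. *cacna2d3* was low and overlapped, at 11, 23 and 21 in WT and 18, 28 and 29 in mutant hearts. The remaining 4 rows, *cacna2d2b*, both rows named *cacna2d4a* and *cacna2d4b*, ranged from 1 to 20 and were not tested.

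Among the beta subunit genes, reads came chiefly from *cacnb4a* and *cacnb2a*. In mammals beta-2 is the main cardiac form, beta-1 belongs to the skeletal muscle channel and beta-4 is known from brain. *cacnb2a* (ENSDARG00000099045, minus strand of chromosome 7, 71600498 to 71645473) stood at 251, 227 and 243 in WT replicates 1 to 3 and at 216, 302 and 271 in mutant replicates 1 to 3, with both the lowest and the highest library in the mutant group (log2 difference 0.12, 95% interval −0.17 to 0.40). The difference was 0.011 without mutant replicate 2, 0.077 without WT replicate 2 and 0.25 without mutant replicate 1. Its ratio to *cacna1c* reads was 0.161 in both groups (SD 0.00642 in WT and 0.0124 in mutant, n = 3). *cacnb4a* (ENSDARG00000009738, plus strand of chromosome 9, 38264287 to 38320290) stood at 488, 352 and 377 in WT and at 519, 364 and 476 in mutant hearts (log2 difference 0.16, 95% interval −0.15 to 0.47), which was 0.052 and 0.063 without mutant replicate 1 or WT replicate 2 and 0.31 and 0.30 without mutant replicate 2 or WT replicate 1. Neither gene separated the groups. Part of *cacnb2a* overlaps *nsun6* on the opposite strand, which stood at 12 to 28, and the sources used here do not say whether counting used the strand.

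The other beta genes were low. *cacnb1* stood at 48, 64 and 56 in WT and 60, 77 and 73 in mutant hearts (log2 difference 0.32, 95% interval −0.13 to 0.76). *cacnb4b* stood at 42, 19 and 20 in WT and 12, 26 and 14 in mutant hearts, with WT replicate 1 apart from its group (log2 difference −0.59, 95% interval −1.47 to 0.28). Neither passed. The paralogue *cacnb2b* never exceeded 4, while *cacnb3a* and *cacnb3b* stayed between 2 and 11, and these 3 were not tested.

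The gamma subunit genes were sparse in every library. All 15 together summed to 140 to 161 in WT and 133 to 191 in mutant hearts, and 8 of them, *cacng1b*, *cacng2a*, *cacng4a*, *cacng5a*, *cacng5b*, *cacng7a*, *cacng7b* and *cacng8a*, were not tested. *cacng1b* had no read in any library. The gene with most reads, *cacng8b*, known in mammals as an auxiliary subunit of AMPA receptors, stood at 57, 42 and 36 in WT and at 32, 38 and 33 in mutant hearts (log2 difference −0.36, 95% interval −0.92 to 0.20), or −0.18 without WT replicate 1. *cacng6a* stood at 10, 12 and 23 in WT and at 22, 17 and 24 in mutant hearts (log2 difference 0.53, 95% interval −0.32 to 1.38), or 0.30 without WT replicate 1 and 0.87 without WT replicate 3. The groups overlapped for all 7 tested gamma genes, among which *cacng1a*, *cacng3a*, *cacng3b*, *cacng4b* and *cacng6b* ranged from 3 to 26. Their standard errors were 0.261 to 0.595 on the log2 scale, against 0.0942 to 0.179 for the 7 members with a mean of at least 100, so that only large differences were detectable at this depth.

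**Figure D4:**
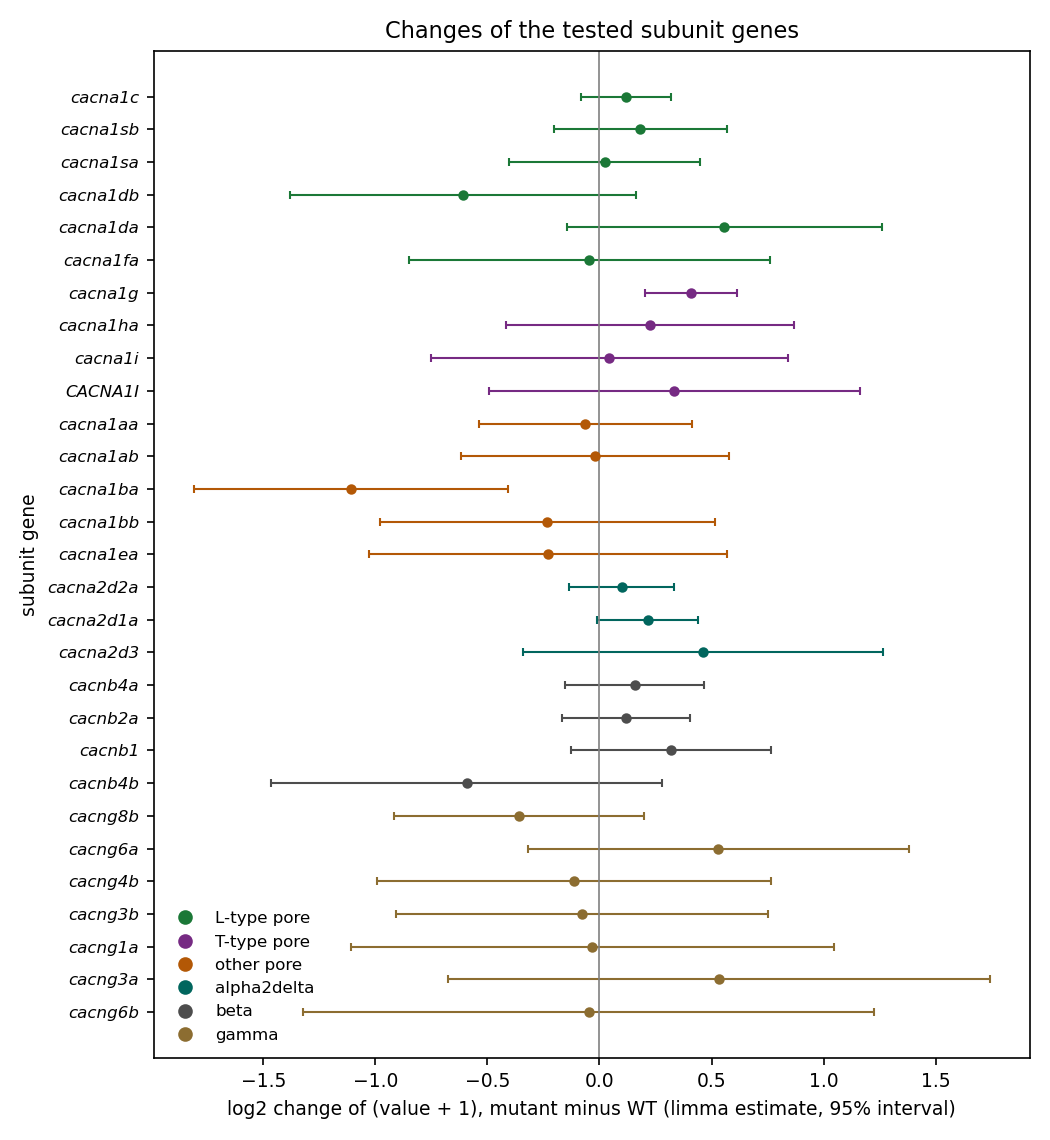
Log2 change of (value + 1), mutant minus WT, for the 29 tested subunit genes by class, with 95% intervals from limma (n = 3 per group). The interval lies above 0 for *cacna1g* and below 0 for *cacna1ba* and includes 0 for the other 27 genes.

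By class, the tested genes differed in sign without passing the test. Of 6 L-type genes 4 lay above 0, and the class median was 0.07, or 0.0042 to 0.17 with each library left out in turn. The medians were 0.28 for the 4 T-type, 0.21 for the 3 alpha2delta, 0.14 for the 4 beta, −0.05 for the 7 gamma and −0.23 for the 5 other pore genes, beside −0.0029 for all genes tested. With each library left out in turn the T-type median ran from 0.14, without mutant replicate 3, to 0.43, without mutant replicate 1, and the beta median from 0.07, without WT replicate 2, to 0.18. The alpha2delta median stayed between 0.18 and 0.25. The gamma median had no steady sign, from −0.43 without mutant replicate 2 to 0.28 without mutant replicate 3, and it was also above 0 without WT replicate 2 and with a pseudocount of 10 (0.02 each). In every library *cacna1g* and *cacna1c* together held most reads of the family, from 66.4% in WT replicate 2 to 72.2% in mutant replicate 2. The share of *cacna1g* alone was 43.6% to 44.3% in WT and 47.8% to 51.0% in mutant hearts, and that of *cacna1c* 22.2% to 22.8% and 20.2% to 21.3%. These are shares of reads and depend on transcript length as well as on level. Each share also depends on the other genes of the sum. The *cacna1c* values themselves were not lower in mutant hearts (log2 difference 0.12, groups overlapping).

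**Figure D5:**
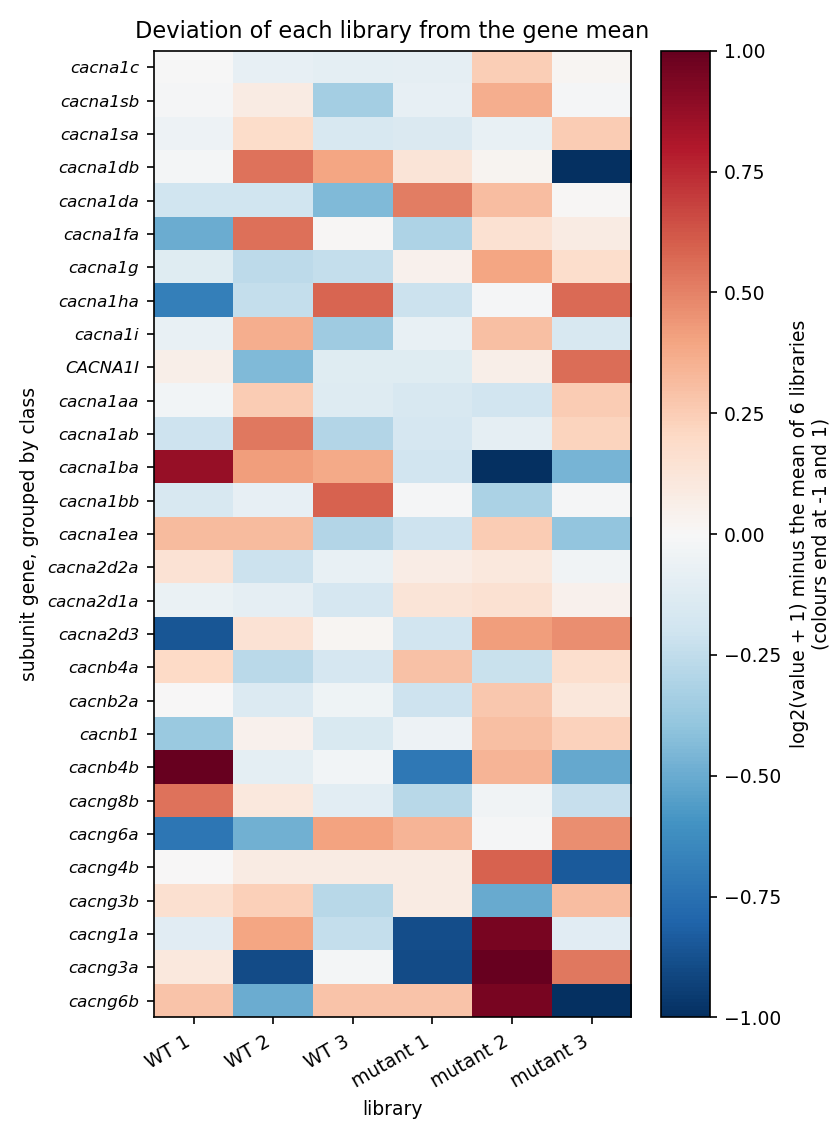
Deviation of log2(value + 1) from the mean over 6 libraries for the 29 tested subunit genes (rows, by class) in each library (columns); colours end at −1 and 1. Deviations differ from library to library within a group, while *cacna1g* is above its mean in the 3 mutant libraries and *cacna1ba* below it.

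Several subunit genes are neighbours on the GRCz10 assembly. *cacna1da* lies 26.8 kb from *cacna2d3* on chromosome 11, and *cacna1c* lies 25.3 kb from a *cacna2d4a* row on chromosome 4, with 1 other protein-coding gene in between at each place. The former neighbours had log2 differences of 0.56 and 0.46, of which neither passed, while *cacna2d4a* was too low to test. The gamma genes form short clusters, *cacng6a*, *cacng8a* and *cacng7a* on chromosome 19, *cacng6b*, *cacng8b* and *cacng7b* on chromosome 16, *cacng5a*, *cacng1a* and *cacng4a* on chromosome 6, and *cacng1b* and *cacng4b* on chromosome 3. On chromosome 22, which carries *wwtr1*, lie *cacna1sa* (895552 to 951586) and *cacna2d2b* (9443132 to 9483379, values 3 to 13), both far from it.

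Other genes of the channel's pathway were taken from lists of regulators and partners, 50 of whose genes were tested. None passed over all genes tested by limma, and 3 had an unadjusted p under 0.05, or 6% against 6.6% of all genes tested, 2 higher and 1 lower in mutant hearts. The groups did not overlap for 6, or 12% against 11.1%. Of these 4 were higher in mutant hearts, or 8% against 5.57%, namely *adrb3a*, *adrb2a*, *calm1b* and *camk2d2*. The 2 lower, or 4% against 5.53%, were *prkacaa* and *ppp3r1b*. The log2 differences of the 50 had a median of 0.02. Of the 3 with an unadjusted p under 0.05, 2 belong to the list of pacemaker channels and sinoatrial factors. *hcn4*, which encodes the main pacemaker channel of the sinoatrial node, stood at 978, 834 and 900 in WT and at 959, 1241 and 1005 in mutant replicates 1 to 3 (log2 difference 0.23, unadjusted p = 0.0451, limma adjusted p = 0.754), with mutant replicate 1 below WT replicate 1. Without mutant replicate 2 the *hcn4* difference was 0.12. *tbx18*, a transcription factor gene of the sinus venosus and epicardium, stood at 239, 230 and 210 against 219, 151 and 147, with overlap (log2 difference −0.41, unadjusted p = 0.0183, limma adjusted p = 0.646). The pacemaker gene with next most reads, *hcn2b*, was even across libraries at 562 to 617. Over the 6 tested genes of this list the median log2 difference was 0.06, with 4 above 0 and 2 below. The groups overlapped for each of the 6.

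The third was the beta-adrenergic receptor gene *adrb3a*, at 101, 98 and 90 in WT and 137, 106 and 127 in mutant hearts, without overlap (log2 difference 0.35, unadjusted p = 0.0486, limma adjusted p = 0.755). Protein kinase A, which phosphorylates the L-type channel complex downstream of these receptors, was represented by catalytic subunit genes. *prkacaa* stood at 878 to 894 in WT and 801 to 862 in mutant hearts, without overlap (log2 difference −0.09, limma adjusted p = 0.916). The *prkacbb* row with more reads (ENSDARG00000059125) stood at 968 to 1037 against 914 to 1062. The 12 tested genes of calmodulin, the calcium sensor bound to the pore, and of CaM kinase II had a median log2 difference of 0.04. The groups did not overlap for 2 of the 12, *calm1b* and *camk2d2*, both higher in mutant hearts, against 11.1% of all genes tested. *calm3b* stood at 1662 to 1944 in WT and 1755 to 1943 in mutant hearts, and *calm2b* at 1467 to 1752 and 1466 to 1677. Calcineurin, the calcium-dependent phosphatase, gave a median of −0.05 over 6 genes. Its regulatory subunit gene *ppp3r1b* stood at 323 to 363 in WT and 296 to 299 in mutant hearts, without overlap. It did not pass (log2 difference −0.22, unadjusted p = 0.0526, limma adjusted p = 0.755). The catalytic *ppp3ccb* stood at 303 to 318 and 281 to 365.

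Inhibitory and structural partners overlapped between the groups, and none passed. *rrad*, an RGK-family GTPase that inhibits the L-type channel through its beta subunit, stood at 925 to 1116 in WT and 948 to 1184 in mutant hearts (log2 difference 0.04, 95% interval −0.18 to 0.26). The related inhibitor *rem1* stood at 120, 91 and 64 in WT and at 119, 133 and 95 in mutant replicates 1 to 3 (log2 difference 0.36, 95% interval −0.10 to 0.83). *ahnak*, a large scaffold known to bind beta subunits, stood at 10076 to 10579 and 9936 to 10850. The ryanodine receptor gene *ryr2b*, the release channel opened by L-type calcium entry in the heart, stood at 9547 to 10552 in WT and 9241 to 11029 in mutant hearts (log2 difference 0.0016, 95% interval −0.20 to 0.20). *ryr3* stood at 1007 to 1295 and 1008 to 1233. *ryr1a*, a gene of the skeletal muscle release channel, stood at 396, 244 and 130 in WT and at 202, 165 and 184 in mutant hearts (log2 difference −0.34, 95% interval −0.93 to 0.24), its WT libraries spreading more widely than the mutant ones. The 8 tested genes of ryanodine receptors and junctophilins, which hold the surface membrane and the reticulum together, had a median log2 difference of −0.00039, with 4 above 0 and 4 below.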

How the data were processed

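The authors deposited 1 table of whole numbers per gene and library. The deposited values are a score: the authors scaled read counts between libraries and rounded them, by a method that the sources used here do not give. That they are not raw counts was read from the values, since WT replicate 2 and mutant replicates 2 and 3 skip 12, 7 and 5 whole numbers between 1 and 100. STAR 2.4.0a, featureCounts 1.4.5-p1 and the danRer10 (GRCz10) assembly are named in the submitters' processing notes. Per the labels' protocols, 6.5 ng of total RNA entered each library, sequenced as single reads of 75 nt.

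Members were the rows whose symbol matched the rule; 46 of 48 identifiers were found in the gene name table. Values were analysed as log2(value + 1), which understates changes of low genes. Genes with at least 10 in at least 3 of 6 libraries were fitted with limma 3.58.1 in R 4.3.3 (mean-dependent variance trend, Benjamini-Hochberg over all genes tested). The fit was tested on simulated data in which changes were set only in genes with higher values, so that run says nothing of the low members. No count model was run, because the values are scaled and rounded and not raw counts. The p-values rest on the spread between 3 pools per genotype, with each gene's variance drawn toward the trend over all genes tested.

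The members, partner lists and marker lists were chosen with earlier results of these data known. Full values are given for members with an unadjusted p under 0.05 and the 2 with most reads of each class. Of each partner list, full values are given for those with an unadjusted p under 0.05. The 2 with most reads of each partner list are given at least by their range. Other members given in full, *rem1* and *ryr1a* were chosen after their values were seen. Of the listed genes, *jph4*, *ryr2a*, *hcn2a*, *gap43* and *hbbe1* were not analysed here, and 1 other is not reported here and was left out of the list counts. The closing section gives the effect of other pseudocounts, filters, scalings, variance and weight settings, a replicate block and each library left out.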

Additional observations from a re-analysis of the deposited data

How the results depend on the processing

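By limma, 0 subunit genes and 0 partner genes passed under each of 15 alternatives: other pseudocounts and value filters, TMM factors, quantile normalisation, no variance trend, library weights, a replicate block and each of 6 libraries left out. Unadjusted p under 0.05 was reached by 1 to 3 subunit genes. Their median log2 difference went to 0.16 over 11 genes with a minimum value of 50, and to between 0.02 and 0.12 with a library left out. Over all genes tested 7 passed, 2 higher and 5 lower in mutant hearts, but 0 without the variance trend, where the lowest adjusted p of a subunit gene was 0.624 for *cacna1ba*. With a library left out, 5 to 43 passed, 2 to 32 higher and 3 to 11 lower, the most without WT replicate 2, the library with the highest share of ribosomal RNA, and 11 without WT replicate 1; the cause was not tested. With the replicate number as a block 15 passed, 8 higher and 7 lower, and *cacna1g* had a limma adjusted p of 0.257. Deviations from the group means, over all genes tested, correlated between same-numbered libraries at 0.022, −0.022 and −0.018. Pairs with different numbers ran from −0.049 to 0.061. With 3 libraries per group and many low genes, these values cannot decide whether same-numbered pools share more than a number.

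Of 401 alternative values of 27 named genes, 372 kept their sign, and the 29 that turned belong to 11 genes without a call, the cause not being tested. The other value filters, the fit without the variance trend and the replicate block leave the log2 difference itself unchanged. Signs could not turn there, so the 372 overstate how steady the signs were. Of the 29 that turned, 24 did so with a library left out. With a library left out the log2 difference ran from −0.0585 to 0.58 for *cacna1ha*, −0.21 to 0.047 for *cacna1aa*, −0.17 to 0.24 for *cacna1ab*, −0.051 to 0.11 for *rrad*, −0.018 to 0.046 for *ahnak*, −0.027 to 0.10 for *calm2b*, −0.0079 to 0.10 for *calm3b*, −0.037 to 0.071 for *prkacbb*, −0.016 to 0.17 for *ppp3ccb*, −0.066 to 0.062 for *ryr2b* and −0.077 to 0.10 for *ryr3*. Library weights gave 0.031 for *cacna1ab*, −0.012 for *ryr2b* and 0.0054 for *ryr3*. For *prkacbb* TMM factors gave −0.0016 and quantile normalisation −0.0062. A value of 20 stands for about that many reads, so differences of the low members are limited by depth.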
